A study of Mus musculus with 12 samples.

Results

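The mitochondrial chromosome of the mouse carries 37 genes, and this report describes their RNA in total liver. Members were taken as every row of the count table whose gene symbol begins with mt-, which gave 37 of the 54232 rows: 13 protein genes, 2 ribosomal RNA (rRNA) genes and 22 transfer RNA (tRNA) genes. RNA was sequenced from 12 livers of C57Bl/6J male mice, all 10 weeks old, chow-fed and fasted for 4 h, with 1 library per mouse. The 6 wild-type (WT) mice were Marchf6 fl/fl AlbuminCre- littermates, and the 6 Marchf6 LKO mice were Marchf6 fl/fl AlbuminCre+, so both groups carried the floxed allele and only the LKO mice carried Cre. Marchf6 encodes an E3 ubiquitin ligase of the endoplasmic reticulum membrane, and the albumin promoter drives Cre in hepatocytes, so the other cells of an LKO liver keep the gene. LKO livers were compared with WT livers for the amount and the composition of this RNA.

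The mitochondrial chromosome is a small circle present in many copies per cell, and hepatocytes are rich in mitochondria. Both of its strands are transcribed into long precursors that run through most of the genes, and the tRNAs, which sit between the larger genes, are cut out to release the rRNAs and mRNAs. The protein genes encode core subunits of respiratory complex I (mt-Nd1 to mt-Nd6 and mt-Nd4l), complex III (mt-Cytb), complex IV (mt-Co1 to mt-Co3) and ATP synthase (mt-Atp6 and mt-Atp8). All other respiratory subunits, and all proteins that copy, transcribe and process this genome, are imported from nuclear genes. The libraries were made with an mRNA kit, which selects RNA with a poly-A tail, so the rRNA and tRNA values below are what passed that selection and not the cell's stock of these RNAs.

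Each library held between 14860414 and 22111926 counted reads. Marchf6 itself was at 226 to 247 CPM in WT and 204 to 249 CPM in LKO livers (CPM is reads per 1000000 of the TMM-scaled library size), with a log2 fold change of -0.09 and an adjusted p of 0.585. The groups were thus not separated by the counts on the whole gene, which include the exons that Cre leaves in place. In the labels' library numbering the WT libraries come first and the LKO libraries follow, so genotype and library number cannot be told apart. Whether the numbers follow an order of handling is not given in the labels. Hepatocyte markers such as Alb and Cps1 were abundant in all livers, at 91390 to 119859 CPM summed over 6 genes, and of the 17509 genes tested with edgeR's quasi-likelihood test 75 had an adjusted p under 0.05, which is 0.428%.

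Some nuclear genes carry near-identical copies of mitochondrial sequence, and reads from a copied stretch cannot be assigned to one place. Alignment of the members to the annotated transcripts of GENCODE M21 (GRCm38) found 7 unprocessed pseudogenes with at least 99% identity, all on the minus strand within chr1:24611535-24616197. They follow each other in the mitochondrial order: Gm29216 holds bases 1063 to 1545 of mt-Co1, Gm28661 nearly all of mt-Co2, Gm10925 of mt-Atp6, Gm28437 of mt-Co3, Gm28438 of mt-Nd3, Gm10222 of mt-Nd4l, and Gm28439 bases 1 to 876 of mt-Nd4. Only 2 bases differ within the aligned stretches, A1066T in mt-Co1 and T3C in mt-Nd3, with positions counted from 1 at the start of the gene, the mitochondrial base first and the copy's base last. These 2 pairs are printed because they show how little sequence separates a member from its copy, with the differing base in capitals.
mt-Nd3: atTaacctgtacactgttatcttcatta
Gm28438: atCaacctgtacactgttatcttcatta
mt-Co1: ggaAttgttttatccaactcatcccttga
Gm29216: ggaTttgttttatccaactcatcccttga

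The end of mt-Atp8 overlaps the start of mt-Atp6 by 43 bases, and the copy of mt-Atp6 begins with the same 43 bases, shown here in capitals because they belong to all 3 genes.
mt-Atp8: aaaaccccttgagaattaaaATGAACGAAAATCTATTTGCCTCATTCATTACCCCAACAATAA
mt-Atp6: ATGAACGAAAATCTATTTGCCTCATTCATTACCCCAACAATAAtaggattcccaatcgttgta
Gm10925: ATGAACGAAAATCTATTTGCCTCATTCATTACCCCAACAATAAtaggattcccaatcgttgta

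Cutting each member into windows of 50 bases, the share of windows found letter for letter in a nuclear transcript was 100% for mt-Co2, 99.5% for mt-Atp6, 99.9% for mt-Co3, 98.0% for mt-Nd3, 98.8% for mt-Nd4l, 62.2% for mt-Nd4 and 51.1% for mt-Co1. It was 8.19% for mt-Nd2, 7.61% for mt-Nd5 and 1.04% for mt-Rnr2, and 0 for mt-Rnr1, mt-Nd1, mt-Atp8, mt-Nd6, mt-Cytb and all 22 tRNA genes. Only annotated transcripts were searched, so the bases between the copies on chromosome 1 were not compared. For mt-Atp8 and the tRNA genes mt-Ts1, mt-Td, mt-Tk, mt-Tg and mt-Tr, which lie between copied genes on the map, the 0 does not exclude a nuclear copy. The counts of the protein and rRNA genes followed the split in shared windows, apart from mt-Atp8, which held 7 to 49 reads. It lies between mt-Co2 and mt-Atp6, whose copies are neighbours on chromosome 1, so it is not counted as a gene free of copied sequence. Over the 12 livers mt-Co2 held 86 to 193 reads against 4376 to 8288 on its copy Gm28661, mt-Atp6 held 165 to 372 against 10297 to 17436 on Gm10925, and mt-Co3 held 145 to 278 against 7352 to 13381 on Gm28437. For mt-Nd3 the reads ran from 16 to 155 against 777 to 1733 on Gm28438, and for mt-Nd4l from 32 to 74 against 607 to 1330 on Gm10222. For the partly copied genes, most of the reads counted on the gene and its near-identical copy were on the gene. mt-Co1 took 96.6% to 96.9% of the sum with Gm29216, and mt-Nd4 93.6% to 94.4% of the sum with Gm28439. Reads that the counting gave to neither are not in these sums, so the shares do not show how many reads were lost. The values of the 5 nearly fully copied members therefore describe the few reads that were given to them, not the amount of their RNA, and say nothing on whether they are expressed below other members. A further 4 copies were more diverged, at 95.2% to 97.6% identity: Gm13339, Gm13340 and Gm13341 on chromosome 2, like mt-Nd2, mt-Co1 and mt-Co2, and Gm4076 on chromosome 13, like mt-Nd5. Gm13340 held 5710 to 10541 reads and is not part of the mt-Co1 sum above.

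The mitochondrial genes together took 5.84% to 6.15% of all counts in WT livers (median 6.04%) and 6.19% to 6.73% in LKO livers (median 6.51%). All 6 LKO livers were above all 6 WT livers as a share of raw counts. WT livers averaged 6.02% ± 0.129 (SD, n = 6) and LKO livers 6.48% ± 0.239 (SD, n = 6), a difference of 0.460 percentage points with a standard error of 0.111, or 1.08 times the WT share. This total was not tested, since it is a sum over members chosen for this description. The TMM factors, which scale each library to the bulk of its genes, were 0.945 to 1.02 in WT and 0.979 to 1.05 in LKO livers. As a share of the TMM-scaled library size the total was 5.84% to 6.46% in WT and 5.99% to 6.88% in LKO livers, the groups overlapped, and the difference was 0.222 percentage points with a standard error of 0.181. The size of the difference and the separation of the groups thus depended on the scaling. In bulk liver, fewer cells of a type and less RNA per cell cannot be told apart.

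**Figure D1:**
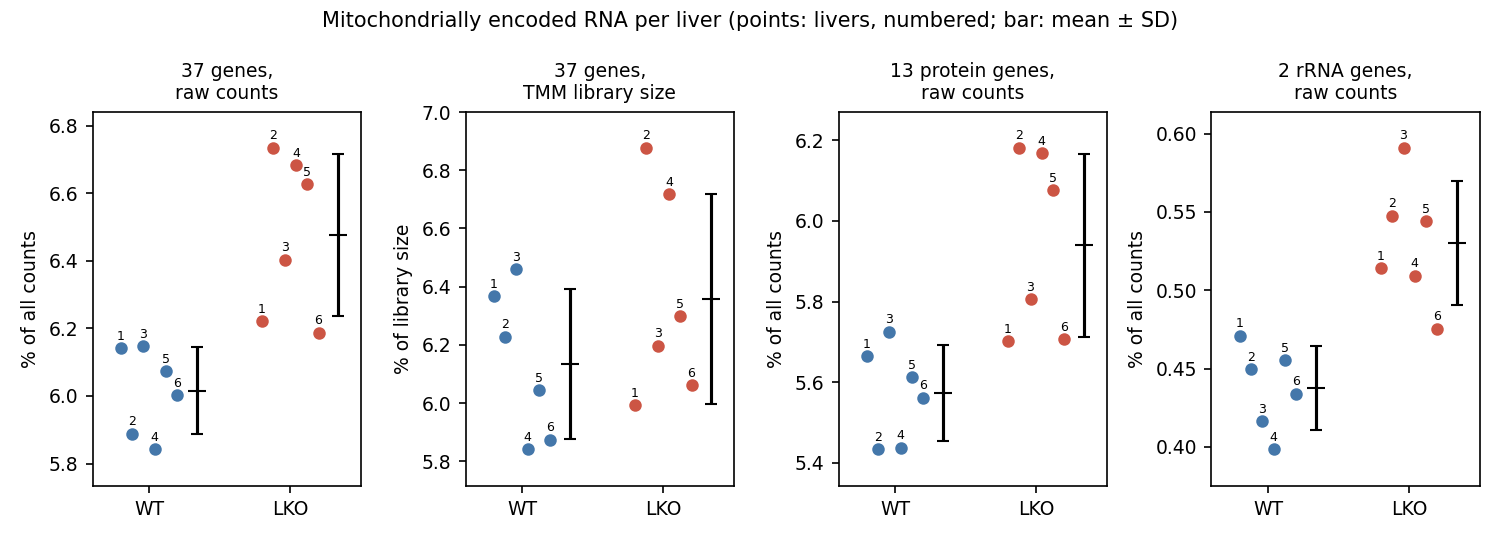
Share of mitochondrial RNA in each liver, with 1 point per liver (numbered by replicate) and bars for the mean ± SD of 6 livers; the vertical axes, in percent, do not start at 0. As a share of all counts the 37 genes lay between 5.84% and 6.15% in WT and 6.19% and 6.73% in LKO, while on TMM library sizes the groups overlapped; the rRNA genes are separated on raw counts and the protein genes overlap narrowly.

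By class, the 13 protein genes took 5.43% to 5.73% of all counts in WT and 5.70% to 6.18% in LKO livers, and the groups overlapped. The 2 rRNA genes took 0.398% to 0.471% in WT and 0.475% to 0.591% in LKO livers, without overlap, and the LKO mean was 1.21 times the WT mean. The rRNA groups overlapped on TMM library sizes, at 0.398% to 0.488% against 0.466% to 0.572%. The 22 tRNA genes together took 0.00596% to 0.00723% in WT and 0.00545% to 0.00664% in LKO livers. The copies on nuclear chromosomes, all 11 together, took 0.271% to 0.308% of counts in WT and 0.309% to 0.332% in LKO livers, again without overlap on raw counts.

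Of the 37 genes, 27 exceeded 2 reads in 6 livers or more and were tested: all 13 protein genes, both rRNA genes and 12 of the tRNA genes. With edgeR's quasi-likelihood test and Benjamini-Hochberg adjustment over all 17509 genes, none of the 27 had an adjusted p under 0.05, while 10 had an unadjusted p under 0.05. Among all genes 0.428% passed the adjusted and 11.7% the unadjusted threshold. DESeq2 called 5 of the 26 members to which it gave an adjusted p (mt-Nd1, mt-Nd3, mt-Ts2, mt-Rnr1 and mt-Tq) and 2.31% of all genes, and limma voom called mt-Nd1 alone and 0.485% of all genes. In 3 members, mt-Rnr1, mt-Nd1 and mt-Co2, every LKO liver was above every WT liver in CPM, as it was for 0.748% of all genes. No member had every LKO liver below every WT liver, which 0.554% of all genes did. As a share of all counts mt-Nd2 joined these 3, against 1.23% of all genes higher and 0.257% lower. The log2 fold changes were above 0 in 15 of the 27 members, with a median of 0.04, beside a median of 0.00 over all genes tested. mt-Tg, which passed the filter through the LKO livers, is among these 15 and among the 10 with an unadjusted p under 0.05. Of the other 10 tRNA genes, none reached the filter, and they are described with the tRNAs.

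**Figure D2:**
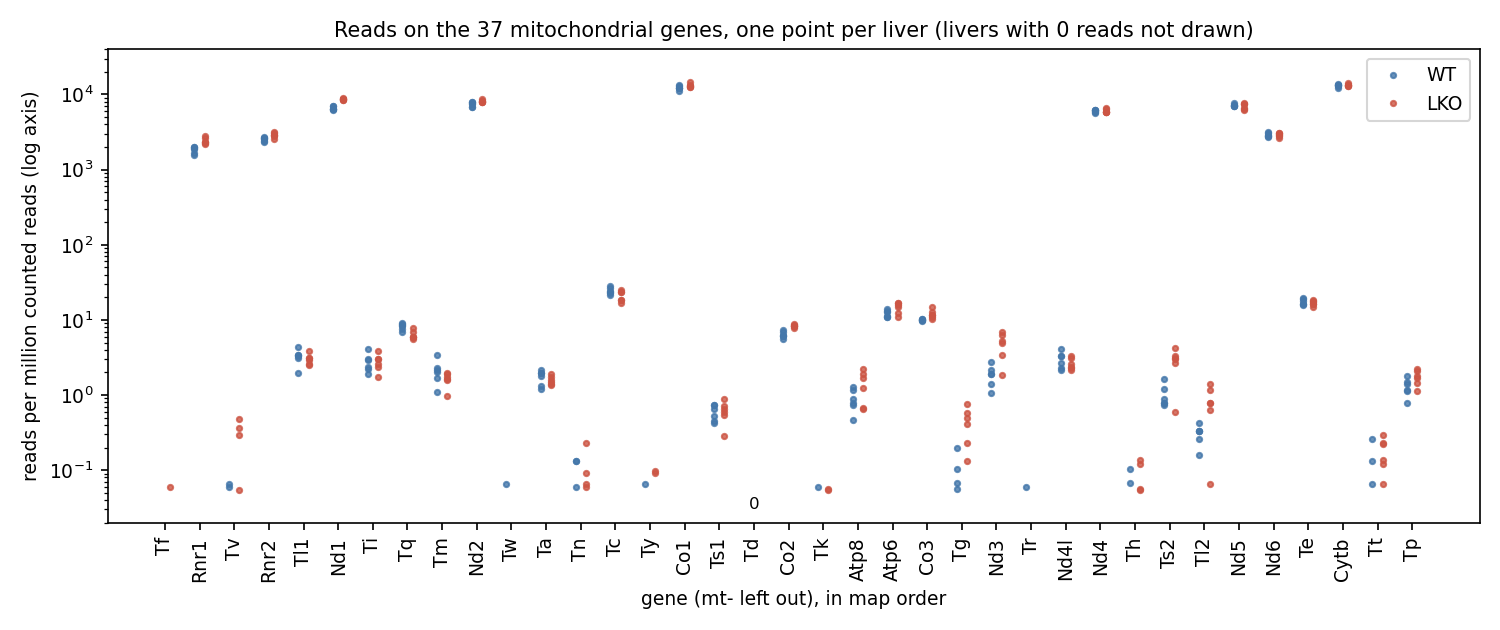
Reads on each of the 37 genes in the order of the mitochondrial map, per 1000000 counted reads (log axis), with 1 point per liver; livers with 0 reads are not drawn, and mt-Td had 0 in all. The rRNA genes and the protein genes mt-Nd1, mt-Nd2, mt-Co1, mt-Nd4, mt-Nd5, mt-Nd6 and mt-Cytb form the upper band, and the other protein genes and the tRNA genes lie far below it.

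Between genes, levels were compared as CPM per kilobase in WT livers. Among members outside the copied stretches, mt-Cytb was highest at 11716 ± 495 (SD, n = 6), followed by mt-Nd2 at 7282 ± 460 and mt-Nd1 at 7034 ± 578, which lie within 1 SD of each other, then mt-Nd6 at 5709 ± 337, mt-Nd5 at 4053 ± 207, mt-Rnr1 at 1963 ± 195 and mt-Rnr2 at 1636 ± 131. mt-Co1 was at 8164 ± 633 over its full length and mt-Nd4 at 4451 ± 213. With only the 1062 bases of mt-Co1 and the 502 bases of mt-Nd4 outside the near-identical copies as length, these became 11877 ± 921 and 12218 ± 585. Each lay within its own SD of the mt-Cytb mean. The 1062 bases of mt-Co1 are not free of copied sequence, since the diverged copy Gm13340 aligned to all 1545 bases of mt-Co1 at 97.6% identity. With the length used, mt-Nd4 moved from below mt-Nd6 to the level of mt-Cytb, while mt-Co1 was next to mt-Cytb in the order by either length. The 5 nearly fully copied genes were at 5.5 to 18.1 CPM per kilobase over their full length, and summed with their copies at 172 (mt-Nd3), 175 (mt-Nd4l), 481 (mt-Co2), 671 (mt-Co3) and 1068 (mt-Atp6) CPM per kilobase.

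The rRNA genes encode the RNA of the small (mt-Rnr1) and the large (mt-Rnr2) subunit of the mitochondrial ribosome, and lie at chrM:70-1024 and chrM:1094-2675 on the plus strand. mt-Rnr1 was at 1636 to 2083 CPM in WT livers (median 1931) and at 2135 to 2717 CPM in LKO livers (median 2269). All LKO livers were above all WT livers, with LKO replicates 2 and 3 highest. The log2 fold change of mt-Rnr1 was 0.34 (SE 0.09), with an adjusted p of 0.116 in edgeR and of 0.0127 in DESeq2. mt-Rnr2 had a log2 fold change of 0.13 (SE 0.07, adjusted p 0.526 in edgeR), and its groups overlapped. The ratio of the 2 rRNAs, as reads of mt-Rnr1 per 100 reads of mt-Rnr2, was 59.7 to 79.2 in WT and 73.7 to 90.8 in LKO livers, with overlap.

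Of the complex I genes, which encode the membrane arm of NADH dehydrogenase, mt-Nd1 (chrM:2751-3707, plus strand) had the lowest p-value. It held 0.620% to 0.712% of all counts in WT livers (median 0.643%) and 0.839% to 0.893% in LKO livers (median 0.868%). In CPM it was at 6200 to 7428 in WT and at 8116 to 8846 in LKO livers, with a gap between the groups on both scales. The fitted fold was 1.26, with a log2 fold change of 0.33 (SE 0.07). The adjusted p was 0.0623 in edgeR, 0.0280 in limma voom and 1.62e-05 in DESeq2, so the call depended on the test. None of the windows of mt-Nd1 was shared with a nuclear transcript.

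mt-Nd2 (chrM:3914-4951) was at 6820 to 8117 CPM in WT and 7649 to 8810 CPM in LKO livers, and its log2 fold change was 0.09 (SE 0.07, adjusted p 0.677). The log2 fold changes of 3 complex I genes in the later part of the map lay just below 0, with mt-Nd4 (chrM:10167-11544) at -0.04 (SE 0.07, adjusted p 0.896), mt-Nd5 (chrM:11742-13565) at -0.11 (SE 0.08, adjusted p 0.622) and mt-Nd6 (chrM:13552-14070) at -0.05 (SE 0.07, adjusted p 0.832). mt-Nd6 is the only protein gene on the minus strand, and its last 14 bases overlap mt-Nd5 on the other strand. Whether the counting used the strand is not given in the sources used here, so reads of that overlap cannot be told apart. mt-Nd4l (chrM:9877-10173), a short subunit gene, had 32 to 63 reads in WT and 39 to 74 in LKO livers and a log2 fold change of -0.22 (SE 0.18, adjusted p 0.675).

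mt-Nd3 (chrM:9459-9806) encodes a small complex I subunit, and few reads were given to it. WT livers had 16 to 46 reads (median 32.5) and LKO livers 28 to 155 (median 95.5), or 1.10 to 2.92 CPM against 1.88 to 6.66 CPM. LKO replicate 2, at 1.88 CPM, lay within the WT range, and the 5 other LKO livers lay above it. The log2 fold change was 1.29 (SE 0.28), with an adjusted p of 0.0659 in edgeR and 0.00148 in DESeq2. Without LKO replicate 2 it was 1.45 with an edgeR adjusted p of 0.0108, and without WT replicate 3 it was 1.45 with 0.0343. Its copy Gm28438, with far more reads, had a log2 fold change of 0.19 (SE 0.07, adjusted p 0.288), and both together were at 59.98 CPM in WT and 71.1 CPM in LKO livers on average. The change of mt-Nd3 was therefore that of the 2.02% to 8.79% of the joint reads which the counting gave to it.

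mt-Cytb (chrM:14145-15288), the single complex III gene and the member with the largest mean share of mitochondrial reads (21.2%), was at 12828 to 14347 CPM in WT and 12316 to 14464 CPM in LKO livers. Its log2 fold change was -0.03 (SE 0.07, adjusted p 0.912). The groups covered nearly the same range.

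Complex IV, cytochrome c oxidase, has its catalytic core encoded here. mt-Co1 (chrM:5328-6872) had a log2 fold change of 0.04 (SE 0.08, adjusted p 0.892). mt-Co2 (chrM:7013-7696) was given 86 to 138 reads in WT livers (median 101.5) and 132 to 193 in LKO livers (median 145), or 5.53 to 7.22 CPM against 7.73 to 8.84 CPM. All LKO livers were above all WT livers in CPM, although the raw reads overlapped. The log2 fold change was 0.34 (SE 0.09, adjusted p 0.118). The copy Gm28661 also had all LKO livers above all WT livers, with a log2 fold change of 0.16 (SE 0.06, adjusted p 0.325), and the sum of both was at 287 to 355 CPM in WT and 357 to 386 CPM in LKO livers. mt-Co3 (chrM:8607-9390) had a log2 fold change of 0.20 (SE 0.09, adjusted p 0.409) on 145 to 278 reads, and its groups overlapped. Its copy Gm28437 did not overlap, at a log2 fold change of 0.17 (SE 0.06, adjusted p 0.220 in edgeR and 0.0173 in DESeq2), and the sum with mt-Co3 was at 483 to 553 CPM in WT and 576 to 622 CPM in LKO livers.

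The ATP synthase genes encode 2 subunits of its membrane part. mt-Atp6 (chrM:7927-8607) had a log2 fold change of 0.21 (SE 0.11, adjusted p 0.465), and its copy Gm10925 one of 0.07 (SE 0.06, adjusted p 0.731). mt-Atp8 (chrM:7766-7969) was given 7 to 21 reads in WT and 10 to 49 in LKO livers, with a log2 fold change of 0.61 (SE 0.33, adjusted p 0.495). Both pairs of groups overlapped. The remaining near-identical copies, Gm29216 of mt-Co1, Gm10222 of mt-Nd4l and Gm28439 of mt-Nd4, had log2 fold changes of 0.08, -0.07 and -0.09, and the diverged copies Gm13339, Gm13340, Gm13341 and Gm4076 of 0.07, 0.01, 0.26 and -0.16, and none of these was called.

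**Figure D3:**
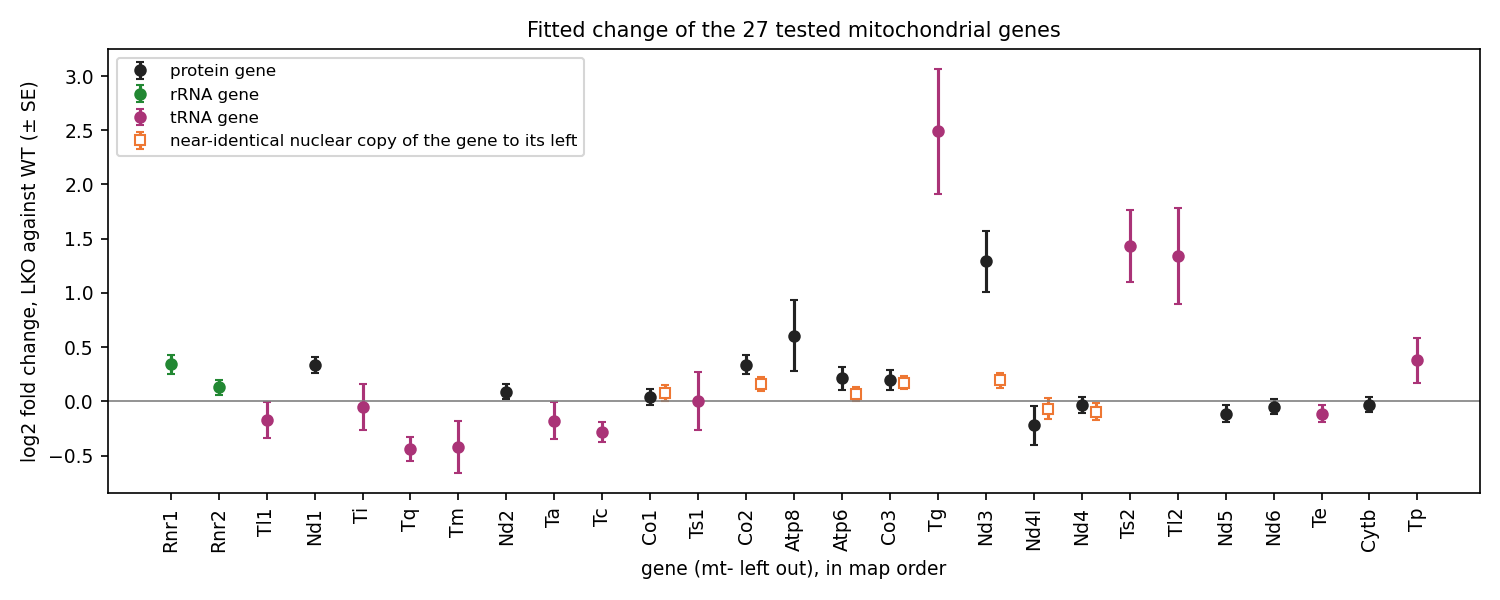
Log2 fold change of LKO against WT (points, with bars for ± SE) for the 27 tested members in map order, by kind of gene, with near-identical nuclear copies as open squares to the right of the gene they copy. Most members lie between -0.5 and 0.5, and mt-Tg, mt-Nd3, mt-Ts2 and mt-Tl2, all with few reads, lie above 1. mt-Tg passed the filter on low counts through the LKO livers, so its point is not read as a change.

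Ratios within a library do not depend on library size. mt-Nd1 and mt-Cytb were set against each other after their values had been seen, so the following is a description. Per 100 reads of mt-Cytb, WT livers had 46.9 to 57.2 reads of mt-Nd1 (median 48.3) and LKO livers 61.2 to 68.5 (median 64.3), without overlap. The mean difference was 14.4 reads with a standard error of 2.00, and it ran from 13.7 to 15.8 when each liver was left out. Per 100 reads of mt-Nd2, mt-Nd1 had 81.7 to 95.04 reads in WT and 100.4 to 110.3 in LKO livers, and per 100 reads of mt-Nd5 it had 83.0 to 101.4 and 114.5 to 140.9. Per 100 reads of mt-Rnr2, the rRNA gene nearest to it on the map, it had 245 to 270 in WT and 270 to 327 in LKO livers, with the highest WT and the lowest LKO liver nearly touching. Against all 4 of these genes the LKO livers were above the WT livers. By contrast, the ratios of mt-Nd4, mt-Nd5, mt-Nd6 and mt-Co1 to mt-Cytb overlapped between the groups. mt-Nd2 per 100 reads of mt-Cytb was 49.9 to 60.2 in WT and 60.7 to 62.1 in LKO livers, which did not overlap but left almost no gap.

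**Figure D4:**
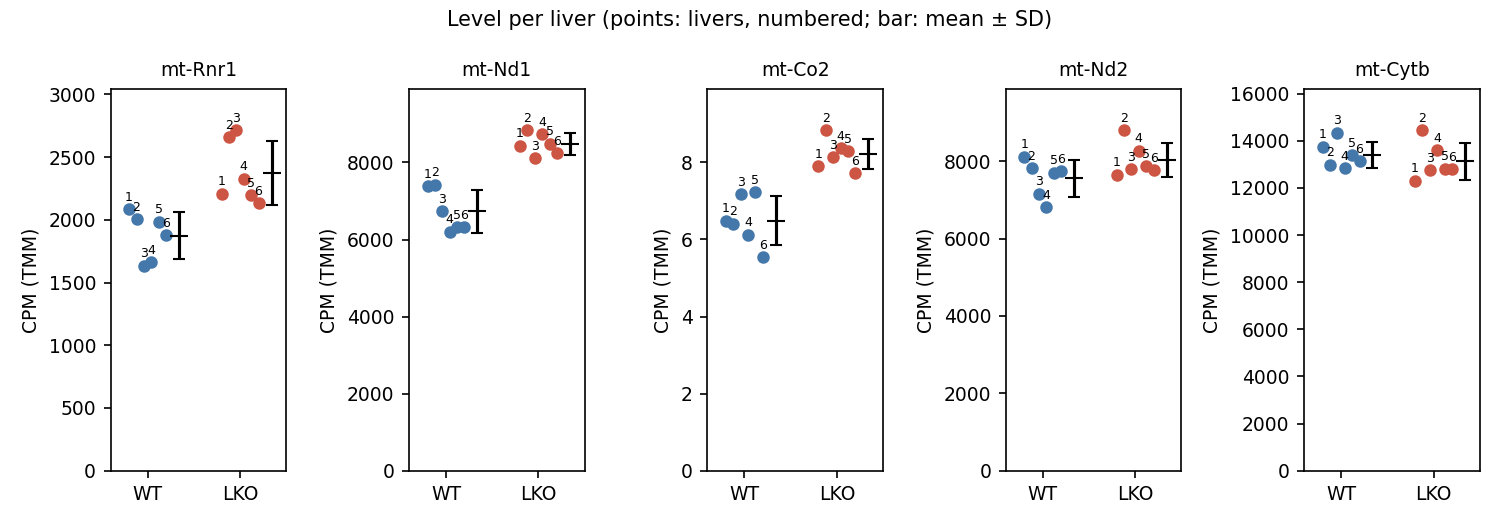
CPM on TMM library sizes in each liver for mt-Rnr1, mt-Nd1, mt-Co2, mt-Nd2 and mt-Cytb, with 1 numbered point per liver and bars for the mean ± SD of 6 livers. mt-Nd1 lay at 6200 to 7428 in WT and 8116 to 8846 in LKO livers, and mt-Cytb covered nearly the same range in both groups.

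The tRNA genes code for the adaptors of mitochondrial translation, 1 for each amino acid and a second for leucine and for serine, and their mature products are short and without a poly-A tail. They held few reads, and 5 genes held most of them. mt-Tc (cysteine, chrM:5192-5257) had the highest counts, at 281 to 514 reads, then mt-Te (glutamate) at 240 to 408, mt-Tq (glutamine) at 102 to 168, mt-Tl1 (leucine) at 33 to 84 and mt-Ti (isoleucine) at 32 to 69. At the other end mt-Td (aspartate) had 0 reads in all 12 livers, which allows up to 3 reads per library. mt-Tf, mt-Tw, mt-Tk, mt-Tr and mt-Ty had at most 2 reads in any liver, mt-Tn, mt-Th and mt-Tt at most 6, and mt-Tv at most 10. These 9 genes and mt-Td were not tested. Of the tRNA genes, mt-Ts1, mt-Td, mt-Tk, mt-Tg and mt-Tr lie between copied genes, and whether their own bases are copied too was not tested.

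The sequences of 5 tRNA genes, from GENCODE M21 (GRCm38) and written 5′ to 3′ on the gene's own strand, are printed to show the short genes whose reads are described next, with capitals for bases that a neighbouring gene shares.
mt-Tq: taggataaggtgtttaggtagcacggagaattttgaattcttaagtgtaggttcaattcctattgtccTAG
mt-Tc: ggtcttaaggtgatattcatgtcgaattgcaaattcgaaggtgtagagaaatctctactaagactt
mt-Tg: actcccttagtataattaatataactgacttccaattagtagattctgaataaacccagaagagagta
mt-Ts2: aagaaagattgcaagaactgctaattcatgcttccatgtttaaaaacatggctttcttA
mt-Tl2: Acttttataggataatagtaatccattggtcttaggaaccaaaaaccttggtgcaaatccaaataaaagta

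mt-Tq and mt-Tc, both on the minus strand, had lower means in LKO livers. mt-Tq was at 6.86 to 9.06 CPM in WT (median 8.78) and at 5.30 to 7.50 CPM in LKO livers (median 5.82). WT replicate 4 fell among the LKO livers, and LKO replicates 2 and 3 were above it. The log2 fold change was -0.44 (SE 0.11), with an adjusted p of 0.107 in edgeR and 0.0142 in DESeq2. mt-Tc had a log2 fold change of -0.28 (SE 0.09, adjusted p 0.228), and its groups overlapped.

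mt-Ts2 (serine, chrM:11613-11671) and mt-Tl2 (leucine, chrM:11671-11741) share 1 base and lie between mt-Nd4 and mt-Nd5. mt-Ts2 had 11 to 25 reads in WT livers (median 15.5) and 9 to 93 in LKO livers (median 53). The lowest LKO value was that of replicate 2, below all WT livers, and the other 5 had 47 or more reads. The log2 fold change was 1.44 (SE 0.33), with an adjusted p of 0.0809 in edgeR, 0.00397 in DESeq2 and 0.00279 in edgeR without LKO replicate 2. mt-Tl2 had 3 to 7 reads in WT and 1 to 29 in LKO livers, again with replicate 2 lowest at 1 read, and a log2 fold change of 1.34 (SE 0.44, adjusted p 0.232, and 0.0477 without LKO replicate 2).

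mt-Tg (glycine, chrM:9391-9458), directly before mt-Nd3, had 0 to 3 reads in WT livers and 2 to 17 in LKO livers. It passed the filter through the LKO livers, with more than 2 reads in 1 WT and 5 LKO livers, so a difference was built into its selection. No fold is given for it. mt-Tv (valine), between the rRNA genes and below the filter, was singled out after its values had been seen. It had 2 reads in all WT livers together and 24 in the LKO livers, of which 23 came from LKO replicates 1, 3 and 5, and 2 LKO livers had 0.

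mt-Nd3, mt-Ts2 and mt-Tl2 thus had the same 5 LKO livers high and LKO replicate 2 lowest of its group. LKO replicate 2 was also lowest of its group in mt-Tg, but mt-Tg was selected through the LKO livers and is no further support. LKO replicate 2 also had the highest mitochondrial total, at 6.73% of counts. Nuclear genes shorter than 150 bases were summed as a measure of how many reads of short RNAs a library held. Their sum was 383 CPM in LKO replicate 2, 219 to 281 CPM in the other LKO livers and 290 to 473 CPM in the WT livers. The part of short-RNA recovery in the values of these genes was not tested.

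**Figure D5:**
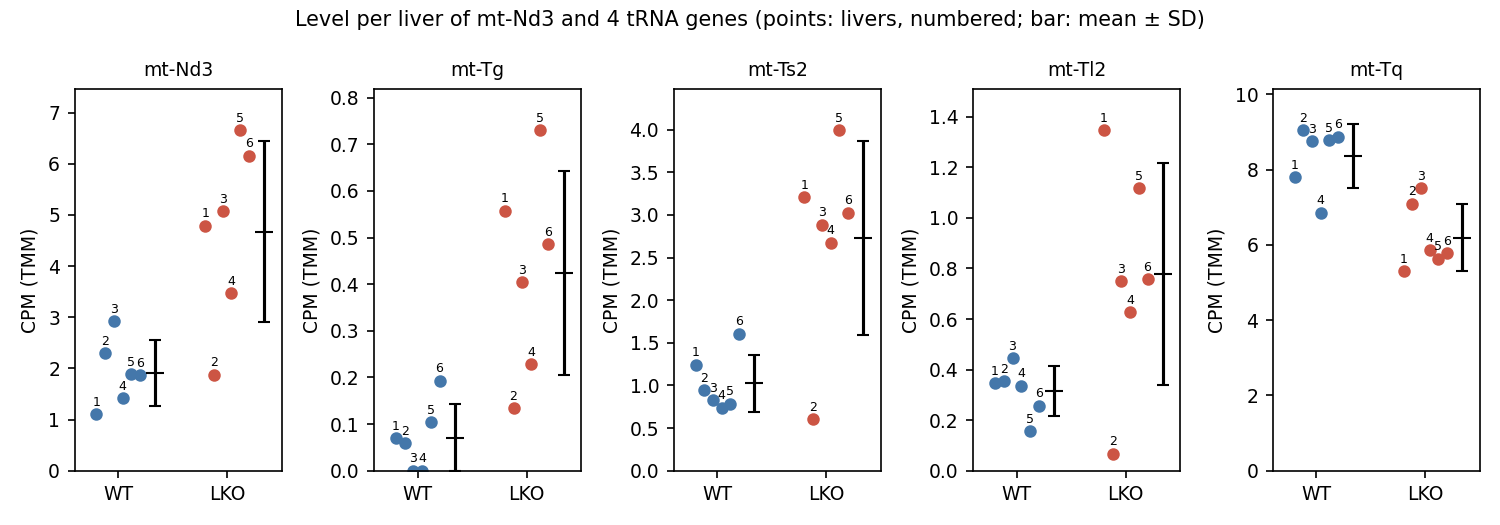
CPM on TMM library sizes in each liver for mt-Nd3, mt-Tg, mt-Ts2, mt-Tl2 and mt-Tq, with 1 numbered point per liver and bars for the mean ± SD of 6 livers. In the first 4 panels LKO replicate 2 lies at or near the WT livers and the other 5 LKO livers lie higher. mt-Tg passed the filter on low counts through the LKO livers. In mt-Tq the LKO mean is lower.

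For the other 7 tested tRNA genes the log2 fold changes were -0.42 (SE 0.24) for mt-Tm, -0.18 (SE 0.17) for mt-Ta, -0.17 (SE 0.17) for mt-Tl1, -0.11 (SE 0.08) for mt-Te, -0.05 (SE 0.21) for mt-Ti, 0.00 (SE 0.27) for mt-Ts1 and 0.38 (SE 0.21) for mt-Tp. Adjusted p-values of these 7 in edgeR were between 0.511 and 0.997. mt-Te and mt-Tp lie on the minus strand, as do mt-Ta and mt-Ts1, and mt-Tl1, mt-Ti and mt-Tm on the plus strand.

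The nuclear genes that serve the mitochondrial genome were described through 4 lists with 79 genes, all of which were tested. None had an adjusted p under 0.05 in edgeR, against 0.428% of all genes, and 4 had an unadjusted p under 0.05, a smaller share than the 11.7% of all genes. Of the 79 log2 fold changes, 30 were above 0, with a median of -0.04, beside 8762 of 17509 and a median of 0.00 for all genes. DESeq2 and limma voom called none of them either. Of the 15 genes of mtDNA transcription and replication, 5 were above 0 (median -0.07), with the largest values at Mterf1a (-0.31, SE 0.19, adjusted p 0.554), a transcription termination factor, and Mgme1 (-0.23, SE 0.12, adjusted p 0.473), a nuclease of mtDNA maintenance. Of the 35 genes of RNA processing, modification and turnover, 16 were above 0 (median -0.01), led by the rRNA methyltransferase gene Tfb1m (-0.19, SE 0.13) and Pnpt1 (-0.18, SE 0.08), which encodes a polynucleotide phosphorylase. Among the 22 genes of tRNA charging, 7 were above 0 (median -0.04), and the leucyl- and seryl-tRNA synthetase genes lay furthest from 0. Lars2 was at -0.53 (SE 0.18, adjusted p 0.234) and Sars2 at -0.26 (SE 0.11, adjusted p 0.367). The highest value in that list, 0.26, was nearly as far from 0 as Sars2. Lars2 averaged 816 CPM in WT livers, of 1275 CPM summed over the list, while Sars2 averaged 9.40 CPM. Of the 7 regulators of biogenesis, 2 were above 0 (median -0.09), with Pprc1 at -0.18 (SE 0.16) and Ppargc1b at -0.12 (SE 0.20), both PGC-1 family coactivators. Nuclear oxidative phosphorylation subunits, picked by the start of their symbol, gave 95 tested genes including pseudogenes and assembly factors of complex II. None was called (0.428% of all genes were), 70 of the 95 were above 0 (8762 of 17509 among all genes), and the median was 0.05. All LKO livers were above all WT livers in 3 of the 95, a larger share than the 0.748% of all genes; the excess was not tested.

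Markers of other liver cells moved beside these values. All 7 Kupffer cell markers had log2 fold changes above 0 (median 0.42), summing to 99.6 to 129 CPM in WT and 125 to 215 CPM in LKO livers. The 4 B cell markers (median 0.87) summed to 0.647 to 1.21 CPM in WT and 1.26 to 2.19 CPM in LKO livers. Each of the 4 averaged 0.190 to 0.265 CPM in WT livers, close to the filter on low counts, so few reads lie behind this separation. The neutrophil markers S100a8 and S100a9 summed to 0.0523 to 0.483 CPM in WT and 0.645 to 3.95 CPM in LKO livers. S100a9 averaged 0.203 CPM in WT livers, also close to the filter, and 0.845 CPM in LKO livers. S100a8 averaged 0.0434 CPM in WT and 0.632 CPM in LKO livers. It thus passed the filter mainly through the LKO livers, so a difference was built into its selection. Stellate cell markers were above 0 in 4 of 4, endothelial markers in 4 of 5, erythroid markers in 3 of 3, T cell markers in 2 of 2, and cholangiocyte markers in 2 of 3. Hepatocyte markers were above 0 in 2 of 6 (median -0.08). None of the markers had an adjusted p under 0.05 in edgeR, all passed the filter on low counts, and their part in the mitochondrial values was not tested.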

How the data were processed

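The genotype in the labels gave 6 WT and 6 LKO livers. The authors isolated RNA with a Direct-zol kit, made KAPA mRNA HyperPrep libraries, sequenced them on a HiSeq4000, used Trimmomatic 0.36 for trimming and HISAT2 2.1.0 for alignment to GRCm38.p6 (Ensembl 93), and deposited raw read counts per gene from HTSeq 0.6.1. The strand setting, overlap mode and read length are not given in the sources used here.

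GENCODE M21 (GRCm38) gave names and positions and contained 54079 of the 54232 identifiers. Genes exceeding 2 reads in 6 livers or more entered edgeR 4.0.16 in R 4.3.3 (TMM, quasi-likelihood, genotype only, two-sided, Benjamini-Hochberg over all genes tested). DESeq2 1.42.0 and limma 3.58.1 voom were alternatives. The fit was tested on simulated data. The standard error is the log2 fold change over the root of F. Percentages used all counts of a library, 14860414 to 22111926 reads, as denominator. Reads are not independent molecules, so depth covers counting error only, and p-values rest on the spread between libraries. With 1 library per mouse, differences between mice and between libraries cannot be told apart in that spread. Copies were found with blastn 2.17.0 (at least 40 bases at 95% identity). Protein and rRNA genes were all named; partner genes were those called or, failing that, the 2 with the largest absolute log2 fold change per list; copies needed a mean of 10 reads. Members and lists were chosen with earlier results of these data known.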

Additional observations from a re-analysis of the deposited data

Results flagged for a closer look

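Dixon's criterion, which sets the gap between an extreme liver and its neighbour against the whole range, was applied to 102 groups of 6 livers (51 measures). It singled out 1 liver in each of 5 groups, where chance gives about 1 in 20 groups. The tRNA share of WT replicate 6 was 0.00723% of counts, with the next WT liver at 0.00643% (gap 0.63 of the range). The copy Gm29216 was at 502 CPM in LKO replicate 4, with the next at 442 CPM (0.764), and Gm10222 at 57.2 CPM in LKO replicate 5, with the next at 46.7 CPM (0.697). Pnpt1 was lowest in WT replicate 6, at 23.2 CPM against 26.98 CPM (0.635). Lars2 was highest in LKO replicate 2, at 848 CPM against 574 CPM for the next LKO liver (0.629), and this is the liver in which mt-Nd3, mt-Ts2 and mt-Tl2 were lowest among the LKO livers.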

How the results depend on the processing

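The count of mitochondrial genes called, 0 in edgeR, was 2 without a filter on low counts (mt-Nd3 and mt-Ts2), 1 with at least 10 reads in every liver (mt-Nd1), 1 in limma voom (mt-Nd1) and 5 in DESeq2. It ran from 0 to 3 when each liver was left out: 3 without LKO replicate 2, 1 without WT replicate 3 and 0 without any other. Over all genes the 75 calls became 114 without a filter and 350 in DESeq2, and ran from 38 (without WT replicate 5) to 132 (without WT replicate 3). RLE normalization and scaling by nuclear genes gave 0 members, and no setting called a nuclear partner. The TMM denominator lowered the LKO difference of the total from 0.460 to 0.222 percentage points and that of the protein genes from 0.367 to 0.149. Without the 20 most abundant nuclear genes in the denominator the totals just overlapped (highest WT 8.00%, lowest LKO 7.99%) with a difference of 0.582 percentage points (SE 0.147), and without the rRNA genes they overlapped with a difference of 0.367 (SE 0.105). With the counts on the nuclear copies added, all LKO livers stayed above all WT livers. They also did so with nuclear counts only as denominator, which cannot change the order of the livers. Sign changes were seen for mt-Ts1 (-0.018 with the replicate block, -0.047 in limma voom, and -0.13 to 0.14 with a liver left out), for mt-Ti (-0.17 to 0.10 with a liver left out) and for Gm13340 (-0.030 to 0.050).

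Same-numbered livers had correlations of -0.06 to 0.14 of their deviations from the group means, so the numbers were not taken as pairs. With the replicate block 0 members and 97 genes were called, and the differences in percent stayed at 0.460, 0.367, 0.0927 and -0.000356 for the total, protein, rRNA and tRNA genes.

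The mt-Nd1 ratios and the count of 4 separated members as a share of all counts, in place of 3 in CPM, were chosen after seeing the data. The low counts of the tRNA genes and of the 5 nearly fully copied genes limit what can be said of them, and a read that lies wholly within an identical stretch cannot be placed.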
